A study of Mus musculus with 6 samples.

Results

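The genes described here are small surface proteins that mark myeloid cells and their subsets in the mouse: Plet1, Plaur, Ly6i, Ly6c1, Ly6c2, Ly6e, Ly6g and Ly6a. They were taken by gene symbol, and 7 of the 8 genes have a probe set under their symbol in the platform annotation, beside 19939 genes of the whole array that have a probe set of their own. Ly6a, which encodes Sca-1, was not analysed here. Plet1, Plaur, Ly6i, Ly6e and Ly6g each have 1 probe set of their own, while Ly6c1 and Ly6c2 are both named on the same 2 probe sets (10429568 and 10429573), so their signals cannot be separated and both probe sets are marked as shared below. Macrophages were grown for 7 days from bone marrow of C57BL/6 mice, sorted, and their total RNA was hybridised to Affymetrix Mouse Gene 1.0 ST arrays. One group, M(CSF2), was induced with CSF2 (GM-CSF) and the other, M(CSF1), with CSF1 (M-CSF), with 3 biological replicates and 1 array each. The labels give neither the age of the mice, nor the marker used for sorting, nor whether each replicate is a different mouse, so the p-values below rest on a spread that may be partly technical. All values are the deposited signals on a log2 scale, on which a difference of 1 is a doubling.

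Ly6 proteins and the urokinase receptor share a compact domain held together by disulphide bridges, known as the Ly6/uPAR or three-finger fold, and most are tied to the outer membrane by a glycosylphosphatidylinositol (GPI) anchor. Ly6C separates classes of mouse blood monocytes, Ly6G marks neutrophils, Sca-1 marks blood stem and progenitor cells, and Ly6e, Ly6a and Ly6c genes are known to respond to interferons. Plaur encodes the receptor that holds the protease urokinase at the cell surface. Plet1 encodes a GPI-anchored glycoprotein first described in placenta and found on epithelial progenitors and on some mononuclear phagocytes.

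All measured members with a signal above the array's background were higher in M(CSF2) cells, and the size of the difference ran from 1.61-fold for Ly6e to 166-fold for Plet1. Of the 7 member probe sets, 6 passed the test (limma, adjusted p under 0.05 over all probe sets), all higher in M(CSF2), and the same 6 had no overlap between the groups. Over all 28941 probe sets, 24.7% passed, 10.3% higher and 14.4% lower, and 17.6% lay higher in M(CSF2) with no overlap. The median difference of the 7 member probe sets was 2.47, against 0.03 over all probe sets. The member that did not pass was Ly6g. In bulk RNA, a larger share of cells that carry a transcript and more of it per cell cannot be told apart.

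**Figure D1:**
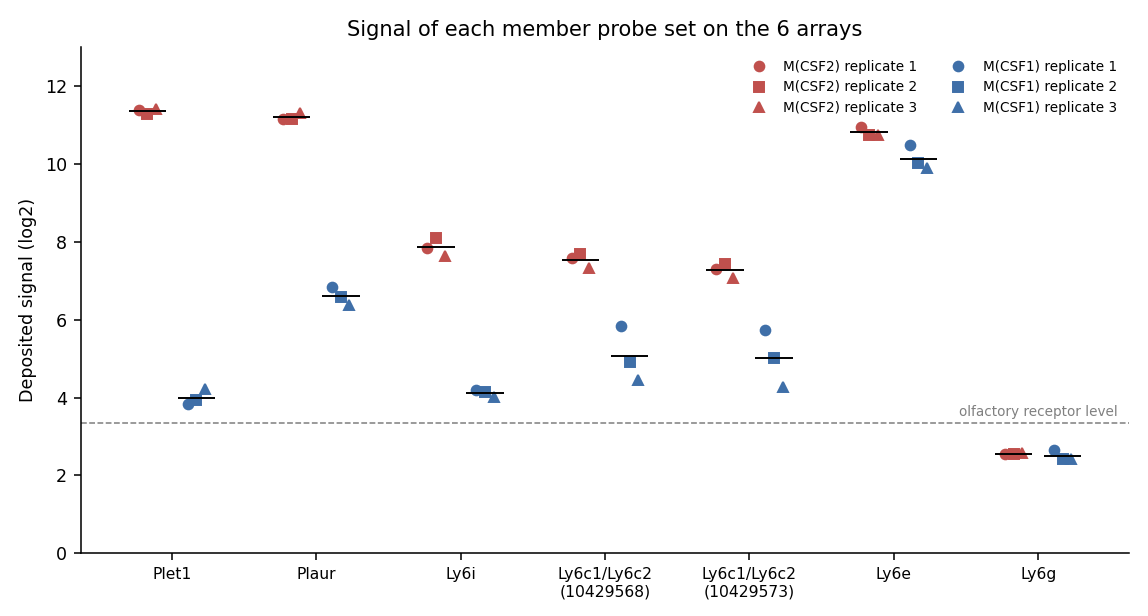
Deposited log2 signal (vertical axis) of each member probe set on the 3 M(CSF2) arrays (red, left) and the 3 M(CSF1) arrays (blue, right). Horizontal bars are group means, and the dashed line is the olfactory receptor level of 3.36. The M(CSF2) arrays lie above the M(CSF1) arrays for all probe sets but Ly6g, which lies below the dashed line on all 6 arrays.

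The sequences just before the transcription starts are shown for the 5 members that the RefSeq promoter table holds, so that the windows of the 2 genes with the largest rises can be set beside those of 3 neighbouring Ly6 genes. Each is the 250 bases before the first listed start, 5′ to 3′ on the gene's strand, in build GRCm38.p6: chr9:50494275-50494524 on the plus strand for Plet1, chr7:24462233-24462482 on the plus strand for Plaur, chr15:75111972-75112221 on the minus strand for Ly6c2, chr15:75048838-75049087 on the minus strand for Ly6c1 and chr15:75155011-75155260 on the plus strand for Ly6g. Capitals mark matches, on either strand, to any of 4 short motifs that were searched.
Plet1: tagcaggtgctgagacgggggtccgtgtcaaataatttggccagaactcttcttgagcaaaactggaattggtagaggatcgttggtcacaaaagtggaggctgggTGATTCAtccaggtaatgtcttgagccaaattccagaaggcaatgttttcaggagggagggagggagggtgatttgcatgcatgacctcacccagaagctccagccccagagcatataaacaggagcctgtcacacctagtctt
Plaur: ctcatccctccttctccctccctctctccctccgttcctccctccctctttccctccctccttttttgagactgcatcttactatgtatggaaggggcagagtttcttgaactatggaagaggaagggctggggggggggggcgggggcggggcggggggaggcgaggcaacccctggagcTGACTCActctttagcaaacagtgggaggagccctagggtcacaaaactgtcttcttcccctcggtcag
Ly6c2: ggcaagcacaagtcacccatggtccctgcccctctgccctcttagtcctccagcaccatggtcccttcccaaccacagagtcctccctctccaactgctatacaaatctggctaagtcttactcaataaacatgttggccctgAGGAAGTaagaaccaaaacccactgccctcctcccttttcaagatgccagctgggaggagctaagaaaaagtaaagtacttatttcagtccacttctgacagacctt
Ly6c1: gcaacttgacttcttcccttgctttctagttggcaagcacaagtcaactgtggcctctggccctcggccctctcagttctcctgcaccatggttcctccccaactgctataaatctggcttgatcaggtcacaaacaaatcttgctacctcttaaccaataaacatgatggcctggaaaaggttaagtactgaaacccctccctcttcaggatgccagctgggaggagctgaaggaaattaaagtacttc
Ly6g: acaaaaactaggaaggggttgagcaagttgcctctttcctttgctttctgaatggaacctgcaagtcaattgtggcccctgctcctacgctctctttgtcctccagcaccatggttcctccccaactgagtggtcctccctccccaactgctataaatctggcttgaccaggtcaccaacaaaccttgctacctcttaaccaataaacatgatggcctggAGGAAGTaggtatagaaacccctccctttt

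The motifs were TGANTCA, the site of AP-1 factors, AGGAAGT, a site of PU.1 and other ETS factors, TTCNNNGAA, the site of STAT factors known as GAS, and GAAANNGAAA, the interferon response element. TGANTCA was found in the windows of Plet1 and Plaur, and in 6.87% of 27025 promoter windows of the same length. AGGAAGT was found in the windows of Ly6c2 and Ly6g and in 7.8% of all windows. TTCNNNGAA and GAAANNGAAA, held by 7.18% and 3.04% of all windows, had no match in these 5. No marked matches overlap. Ly6c2 and Ly6c1 windows were identical at 76.3% of 215 aligned bases, Ly6c2 and Ly6g windows at 80.0% of 165, and Ly6c1 and Ly6g windows at 83.5% of 206. A match is a run of letters and not a measured binding site.

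Plet1 had the largest difference of the members. Its signals were 11.39, 11.30 and 11.42 on the M(CSF2) arrays, against 3.84, 3.94 and 4.22 on the M(CSF1) arrays. The lowest M(CSF2) array lay 7.08 above the highest M(CSF1) array. The mean was 11.37 ± 0.06 in M(CSF2) and 4.00 ± 0.19 in M(CSF1) (SD, n = 3 arrays each), a difference of 7.37 (SE 0.11, limma adjusted p = 2.29e-07) or 166-fold, with a 95% interval of 139 to 197. Only 2 of the 28941 probe sets had a larger rise. The M(CSF1) signals lay above, but near, the olfactory receptor level of 3.36. This level is the 95th percentile of 1027 odour receptor genes and serves here as a measure of background. The fold is therefore not given as a bound, but it rests on M(CSF1) signals close to the array medians of 3.91 to 4.00. Its interval does not cover the part of background in such dim signals.

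Plaur was bright in M(CSF2) cells and moderate in M(CSF1) cells. Its signals were 11.17, 11.15 and 11.31 on the M(CSF2) arrays, against 6.84, 6.59 and 6.38 on the M(CSF1) arrays. The groups were far apart, with a gap of 4.31 between the nearest arrays. The difference was 4.61 (SE 0.12, limma adjusted p = 1.31e-06), which is 24.5-fold with a 95% interval of 20.0 to 29.8, and 35 probe sets rose more.

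Ly6i was near background in M(CSF1) cells and clearly above it in M(CSF2) cells. It gave 7.86, 8.09 and 7.65 on the M(CSF2) arrays, against 4.19, 4.14 and 4.03 on the M(CSF1) arrays. The 3 M(CSF1) arrays differed little from each other (SD 0.09), and the spread among M(CSF2) arrays was wider (SD 0.22). The difference was 3.74 (SE 0.12, limma adjusted p = 2.31e-06), or 13.4-fold with a 95% interval of 11.1 to 16.2.

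The shared Ly6c1 and Ly6c2 probe sets also rose, with a far wider spread in M(CSF1) cells. Probe set 10429568 gave 7.60, 7.69 and 7.33 on the M(CSF2) arrays, against 5.84, 4.92 and 4.45 on the M(CSF1) arrays. M(CSF1) replicate 1 was the highest of its group, and still 1.49 below the lowest M(CSF2) array. Probe set 10429573 gave 7.31, 7.42 and 7.07 on the M(CSF2) arrays, against 5.73, 5.02 and 4.28 on the M(CSF1) arrays. Both probe sets name the same genes, so they are not separate evidence. Their differences were 2.47 (SE 0.32, limma adjusted p = 0.0012) and 2.26 (SE 0.33, limma adjusted p = 0.00204), or 5.54-fold (95% interval 3.27 to 9.36) and 4.78-fold (95% interval 2.80 to 8.16). Without M(CSF1) replicate 1 the differences were 2.85 and 2.62. The SD was 0.18 for both probe sets in M(CSF2), and 0.71 and 0.72 in M(CSF1), where the median SD of all probe sets was 0.10.

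Ly6e, an interferon-responsive gene, was bright in both groups and differed least among the members that passed. It gave 10.95, 10.76 and 10.76 on the M(CSF2) arrays, against 10.48, 10.02 and 9.90 on the M(CSF1) arrays. The groups did not overlap, with a gap of 0.27 that is smaller than the spread within M(CSF1). The difference was 0.69 (SE 0.15, limma adjusted p = 0.0142), or 1.61-fold with a 95% interval of 1.26 to 2.07. Omitting single arrays ended the call in 3 of 6 cases. The difference became 0.62 (adjusted p = 0.0759) on dropping M(CSF2) replicate 1, 0.72 (adjusted p = 0.0506) on dropping M(CSF2) replicate 2 and 0.63 (adjusted p = 0.0731) on dropping M(CSF1) replicate 2, and ordinary least squares also lost it (adjusted p = 0.0974).

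Ly6g, the neutrophil marker, gave 2.56, 2.56 and 2.57 on the M(CSF2) arrays, against 2.65, 2.42 and 2.41 on the M(CSF1) arrays. All 6 arrays lay below the olfactory receptor level, and the M(CSF2) values fell inside the range of the M(CSF1) values. The difference was 0.07 (95% interval -0.13 to 0.26, limma adjusted p = 0.625), and no fold is given because both groups were at background.

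**Figure D2:**
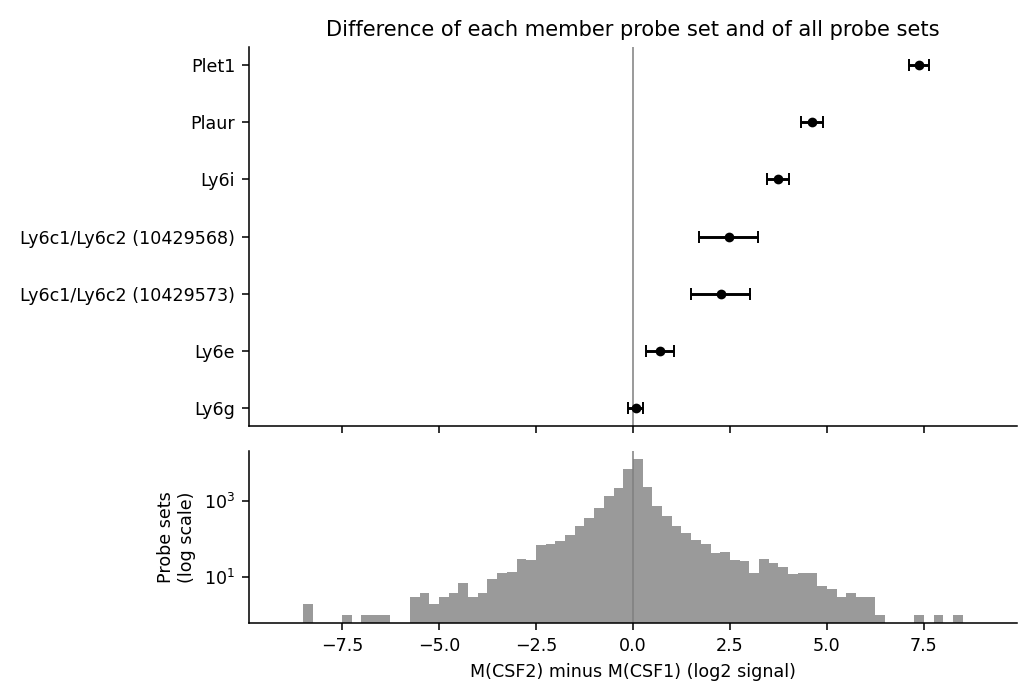
The upper panel shows the difference, M(CSF2) minus M(CSF1) in log2 signal, of each member probe set with its 95% interval. The lower panel shows the number of all 28941 probe sets at each difference, with a log vertical axis. Plet1 at 7.37 lies at the far right end of the distribution and Ly6g at 0.07 lies in its middle.

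Within M(CSF1), arrays departed from their group mean in a shared way for several members. M(CSF1) replicate 1 lay above its group mean by 0.77 and 0.72 for the shared Ly6c probe sets and by 0.35 for Ly6e. It lay above by 0.24 for Plaur and by 0.07 for Ly6i, and below by -0.16 for Plet1. Ly6g, at background on all 6 arrays, lay 0.16 above on the same array, so departures of this size also occur at background. On that array the mean of 28 interferon-stimulated genes lay 0.32 above its group mean, and 27 of the 28 had their highest M(CSF1) value there. The mean of all probe sets differed by less than 0.002 between an array and its group. In M(CSF2), the interferon-stimulated genes lay 0.14 above the group mean on replicate 1, where Ly6e lay 0.13 above and the Ly6c probe sets 0.06 and 0.04 above. M(CSF2) replicate 2 went the other way: the interferon-stimulated genes were at their lowest there (-0.13), while the Ly6c probe sets (0.15 and 0.16) and Ly6i (0.23) were at their highest. The part of this list in the Ly6 values was not tested. Leaving out M(CSF1) replicate 1 kept all 6 calls among the members and gave 0.86 for Ly6e (adjusted p = 0.00265).

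**Figure D3:**
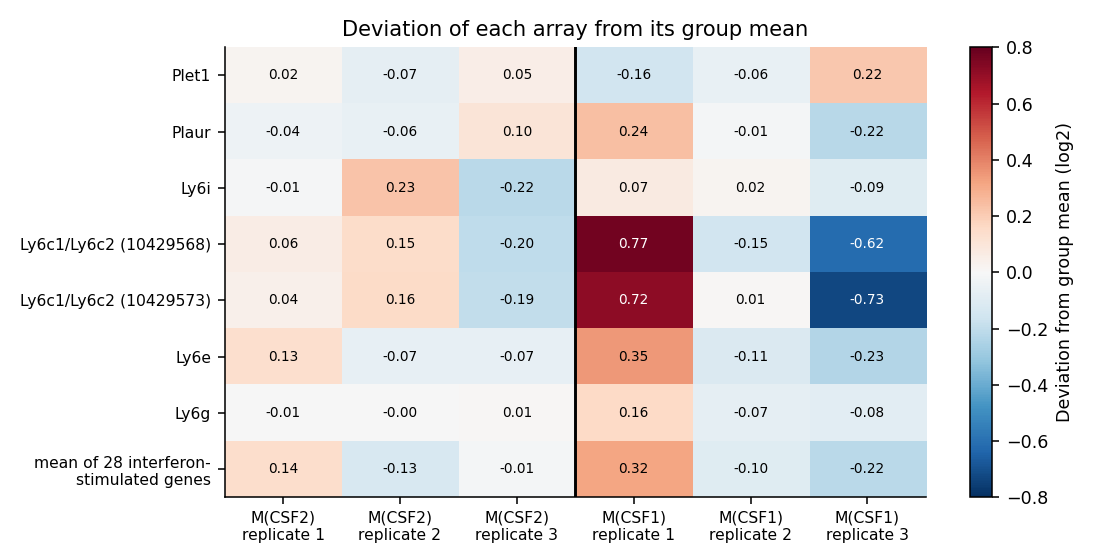
Departure of each array from the mean of its own group, in log2 signal, for the 7 member probe sets and for the mean of 28 interferon-stimulated genes. M(CSF1) replicate 1 is high for both shared Ly6c probe sets, for Ly6e and for the interferon-stimulated genes, and low for Plet1.

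Interferon-stimulated genes as a list were not higher in M(CSF2). Of 28 measured, 2 were called higher and 6 lower, with a median difference of -0.35, while among all 19939 genes with a probe set of their own 11.6% were called higher and 15.3% lower (26.8% in all) with a median of 0.04. The antiviral synthetase-like gene Oasl2 (0.94) and the membrane protein gene Ifitm3 (0.48) rose. The antiviral gene Oas2 (-1.97), Rtp4 (7.31 in M(CSF2) and 8.31 in M(CSF1)), a chaperone of membrane receptors, and the chemokine Cxcl10 (-0.91) fell. Without M(CSF1) replicate 1 the counts were 4 higher and 4 lower.

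The 6 Ly6 members lie in a row on mouse chromosome 15 in the order of the RefSeq table (assembly GRCm38.p6), Ly6e, Ly6i, Ly6a, Ly6c1, Ly6c2 and Ly6g, with Ly6a2 between the last pair. Of the other 13 protein-coding genes in or beside this row, 8 had a probe set of their own, of which 1 was called higher and none lower. That gene was Ly6g2, at 2.77 in M(CSF2) and 2.47 in M(CSF1), a difference of 0.30 (adjusted p = 0.0264) with all 6 arrays at or below the olfactory receptor level. Ly6a2 gave 0.08 (adjusted p = 0.542) and Ly6m, beside Ly6e, gave 0.09 (adjusted p = 0.693). Next to Plaur on chromosome 7, 2 of 8 neighbours were called higher, the potassium channel gene Kcnn4 (1.37) and Irgc1 (0.55), and none lower. Next to Plet1 on chromosome 9, the called neighbours were Ttc12 (0.94) and Pts (0.70), both higher, and the cytokine gene Il18 (-1.02), lower, and the other 5 were not called. Among all 19939 genes with a probe set of their own, 11.6% were called higher and 15.3% lower. Counts over 8 genes are too small to be set apart from these shares. The neighbours were chosen after the members' values were seen.

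**Figure D4:**
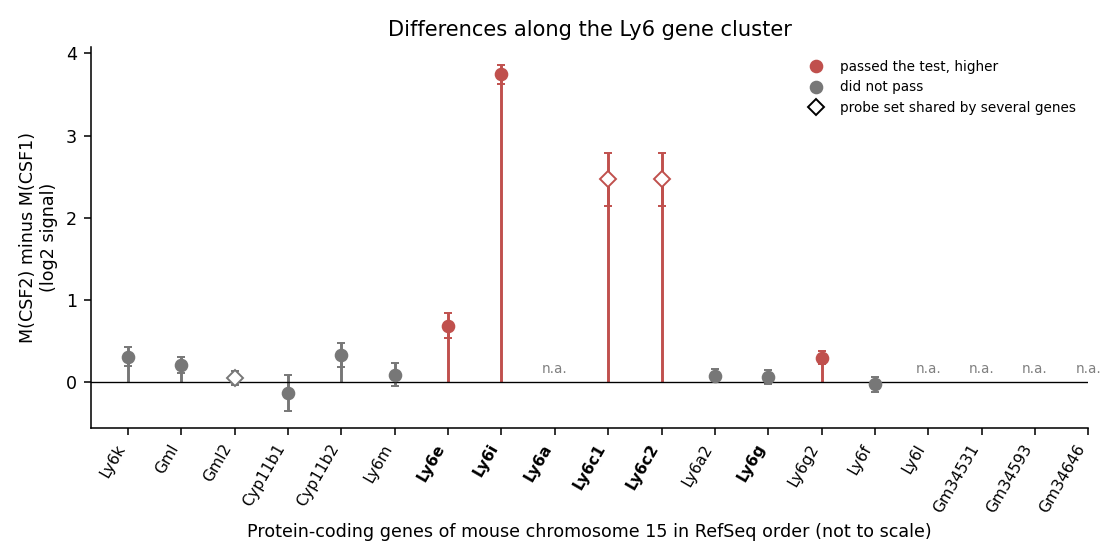
Difference, M(CSF2) minus M(CSF1) in log2 signal, with its standard error, for 19 protein-coding genes in their order on mouse chromosome 15, members in bold. Ly6c1 and Ly6c2 show the same shared probe set, and n.a. marks genes not analysed here. Ly6i stands at 3.74 and Ly6c at 2.47, while Ly6a2, Ly6g and Ly6f lie near 0.

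Most other genes of the Ly6/uPAR family were not called, and many were dim. Of 34 measured, 15 lay at or below the olfactory receptor level on all 6 arrays. Calls were 2 higher and 1 lower, 31 were not called, and the median was 0.05. Over all genes with a probe set of their own, 11.6% were called higher and 15.3% lower. The exception in size was Cd59a, which encodes a GPI-anchored inhibitor of the complement membrane attack complex. It gave 4.33, 3.81 and 3.56 on the M(CSF2) arrays, against 6.94, 6.89 and 6.79 on the M(CSF1) arrays. Here the M(CSF1) arrays were the high ones, with no overlap. It fell by 2.97 (SE 0.18, limma adjusted p = 3.38e-05), 7.83-fold lower in M(CSF2). Its M(CSF2) signals were near the olfactory receptor level, so this fold rests on dim values. Cd177, a neutrophil surface protein of this family, rose by 0.37 (adjusted p = 0.0389), and the other called rise was the Ly6g2 value above. No gene of this list was called higher with the replicate block, with ordinary least squares, without M(CSF2) replicate 1 or without M(CSF1) replicate 1.

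The urokinase system that Plaur belongs to had 5 of 18 measured genes higher and 1 lower, with a median of 0.12. The shares of all genes with a probe set of their own were 11.6% higher and 15.3% lower. Plau, the ligand urokinase, gave 9.36, 9.42 and 9.17 on the M(CSF2) arrays, against 6.98, 6.50 and 6.52 on the M(CSF1) arrays. All M(CSF2) arrays were above all M(CSF1) arrays. It rose by 2.65 (SE 0.14, limma adjusted p = 1.91e-05), or 6.28-fold. Serpinb2, an inhibitor of urokinase, averaged 11.41 in M(CSF2) and 8.10 in M(CSF1), a rise of 3.30 (adjusted p = 1.65e-06). S100a10, part of a plasminogen-binding complex, rose by 1.23 and the integrin chain Itgb1 fell by 0.43 (adjusted p = 0.0347). Itgam, which pairs with Itgb2 in an integrin that Plaur can associate with, gave -0.19 (adjusted p = 0.19).

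Genes that build and attach the GPI anchor showed no common direction, with 5 of 30 called higher, 5 called lower and a median of 0.05. These counts were near the shares of all genes with a probe set of their own, 11.6% higher and 15.3% lower. Piga, which carries out the first step of anchor synthesis, fell by 1.35 (adjusted p = 0.00109), to 3.52 in M(CSF2), against 4.88 in M(CSF1). The mannosyltransferase gene Pigz fell by 1.29 and Pign, which adds an ethanolamine phosphate, fell by 0.85. Pigx (0.64), Pigs (0.63), a subunit of the transamidase that attaches the anchor, and Pigo (0.63) rose.

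Other GPI-anchored proteins of blood cells moved both ways and by large amounts. Of 26 measured, 12 were called higher and 4 lower, with a median of 0.18. Among all genes with a probe set of their own, 11.6% were called higher and 15.3% lower. The pantetheinase gene Vnn3 rose by 4.72 (26.4-fold), Cd24a, a mucin-like surface protein, by 3.75 (13.5-fold) and Nt5e, the ectonucleotidase CD73, by 3.21. The M(CSF1) means of Cd24a (3.83) and Nt5e (3.93) were near the olfactory receptor level, so these rises rest on dim signals. Cd55, which speeds the decay of complement convertases, averaged 2.91 in M(CSF2) and 8.49 in M(CSF1). Its M(CSF2) arrays were all at background, which makes it at least 35.1-fold lower (adjusted p = 5.31e-07). The folate receptor gene Folr2 fell by 3.65, to an M(CSF2) mean of 3.85 near that level, and the SLAM family ligand Cd48 by 0.96.

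**Figure D5:**
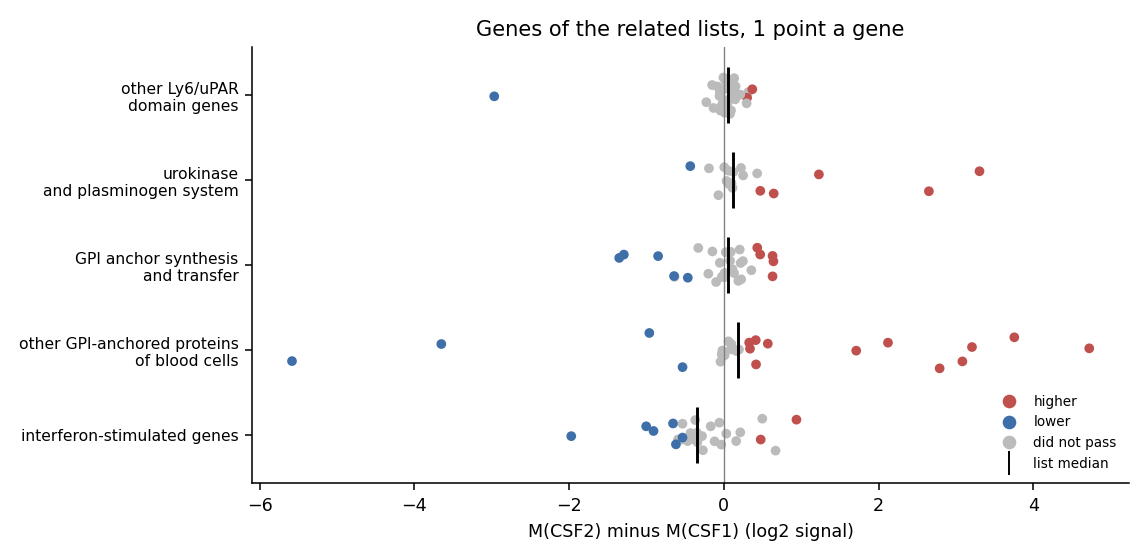
Difference, M(CSF2) minus M(CSF1) in log2 signal, of each measured gene in 5 lists, with called rises in red, called falls in blue, other genes in grey and the list median as a bar. Cd59a at -2.97 and Cd55 at -5.58 stand at the lower end of their lists, and Vnn3 at 4.72 at the upper end.

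The profiles most like each called member with its own probe set were found by the root mean square difference of values centred per probe set over the 6 arrays, a measure that the group difference dominates. For Plet1 they were the stefin gene Stfa3 (0.41 on the log2 scale) and AA467197 (0.51). For Plaur they were the cystine transporter gene Slc7a11 (0.11) and the transcription factor gene Bhlhe40 (0.13). For Ly6i they were Igfbp7 (0.13), a secreted binding protein, and the gelatinase gene Mmp2 (0.14). For Ly6e they were the histone gene H2bc4 (0.07) and Lgals3bp (0.07). The shared Ly6c probe sets were not in this search. Members with differences of unlike size could hardly be matched by this measure. That no Ly6 family gene is among these therefore does not bear on whether the family shares a profile.

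The cells carried macrophage markers throughout, with the mean of 11 such genes at 9.66 to 9.73 on M(CSF2) arrays and 9.65 to 9.76 on M(CSF1) arrays. Of these genes 4 were called higher, with Cebpa (1.72) and Cd14 (1.71) leading, and 5 lower, with Fcgr1 (-1.23) and Adgre1 (-1.18) leading. Only 2 were not called and the median was -0.39, while 26.8% of all genes with their own probe set were called. The similar list means thus cover called differences in both directions. As further reference levels, Actb gave -0.37, Ptprc -0.73, the CSF1 receptor Csf1r 0.60 and the CSF2 receptor chain Csf2ra 1.25. The array medians ran from 3.91 to 4.00, and arrays correlated at 0.995 to 0.997 within a group and at 0.954 to 0.959 between groups.

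Markers of cells that are known for Ly6 members were read beside them. For comparison, 11.6% of all genes with a probe set of their own were called higher and 15.3% lower. Neutrophil markers averaged 5.16 to 5.32 on M(CSF2) arrays and 4.81 to 4.90 on M(CSF1) arrays, with 5 of 18 called higher and 2 lower (median 0.09). The collagenase gene Mmp8 (4.44), S100a8 (2.37), Lcn2 (1.26) and Cd177 (0.37) rose and Csf3r (-1.57) and Mmp9 (-0.90) fell. Ltf was the other called rise (0.31), with both groups at background. Of the 18 genes, 6 lay at or below the olfactory receptor level on all arrays, as Ly6g did: Ltf, Ngp, Cxcr2, Retnlg, Ctsg and Padi4. The granule genes Camp (4.61 in M(CSF2) and 4.01 in M(CSF1)), Mpo (3.77 and 3.72), Prtn3 (3.60 and 3.54) and Elane (3.39 and 3.46) had means above that level and were not called. Ly6C-high monocyte markers averaged 5.27 to 5.48 on M(CSF2) arrays and 4.75 to 5.04 on M(CSF1) arrays, with 3 of 7 called higher, 1 lower and a median of 0.39. Chil3 (4.45), a chitinase-like protein whose M(CSF1) mean of 3.10 lay under the olfactory receptor level, Hp (1.25) and Vcan (0.35) rose and Ms4a4c (-3.93) fell, while Ccr2, the receptor that defines these monocytes, was at background on all arrays. Ly6C-low monocyte markers averaged 4.92 to 4.97 on M(CSF2) arrays and 5.84 to 5.97 on M(CSF1) arrays, with 0 of 8 called higher and 5 lower (median -0.95), led by the integrin chain Itgal (-2.32), Pou2f2 (-1.98) and Spn (-1.59).

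Lists for cell types known for Plet1 or Ly6a gave the counts below, beside 11.6% called higher and 15.3% lower among all genes. Alveolar macrophage markers averaged 6.04 to 6.17 on M(CSF2) arrays and 4.767 to 4.998 on M(CSF1) arrays. Of these 12 genes 5 were called higher and 2 lower (median 0.21). Car4 (5.59) and Slc39a2 (3.47) rose, and Marco (-2.06) and Pparg (-0.75) fell. The M(CSF1) means of Car4 (3.98) and Slc39a2 (3.48) were near the olfactory receptor level. Epithelial markers averaged 3.82 to 3.90 on M(CSF2) arrays and 3.59 to 3.82 on M(CSF1) arrays. Of these 10 genes only Cdh1 was called, 0.96 higher, the median was 0.11, and Epcam, Krt19, Krt14 and Esrp1 lay at background on all arrays. Progenitor markers averaged 4.16 to 4.24 on M(CSF2) arrays and 3.61 to 3.69 on M(CSF1) arrays, with 3 of 10 called higher, Gata2 (2.52), Slamf1 (1.42) and Kit (1.32), none lower (median 0.08) and Cd34 at background. Endothelial markers averaged 4.94 to 4.97 on M(CSF2) arrays and 4.19 to 4.29 on M(CSF1) arrays, with 4 of 10 higher, including Kdr (3.53), Vwf (1.62) and Eng (1.16), and 1 lower, Pecam1 (-0.79, median 0.21), and with Tek and Emcn at background. Dendritic cell markers averaged 5.14 to 5.21 on M(CSF2) arrays and 4.20 to 4.26 on M(CSF1) arrays, with 4 of 10 higher, led by Itgax (5.05) and Ccr7 (3.93), and none lower (median 0.23). One of the 4 was Clec9a (2.82 in M(CSF2) and 2.55 in M(CSF1)), with both groups at background, and without probe sets at that level 3 were called higher and 1 lower. The part of these cell types in the members' values was not tested.

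The shares called in the remaining lists, 2 of 10, 1 of 5 and 2 of 8 genes, were near the 26.8% of all genes. T and NK cell markers had 1 of 10 higher, Thy1 (0.34), and 1 lower, Cd4 (-0.87, median 0.09), with means of 3.34 to 3.46 on M(CSF2) arrays and 3.30 to 3.44 on M(CSF1) arrays. B cell markers had 0 of 5 higher and 1 lower, Cd79b (-2.20, median 0.02), with means of 3.70 to 3.81 on M(CSF2) arrays and 4.02 to 4.50 on M(CSF1) arrays. Stromal markers had 1 of 8 higher, Dcn (3.30), and 1 lower, Postn (-2.91, median 0.08). Their means were 4.21 to 4.35 on M(CSF2) arrays and 4.12 to 4.29 on M(CSF1) arrays. The M(CSF1) mean of Dcn (3.58) and the M(CSF2) mean of Postn (3.47) were near the olfactory receptor level.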

How the data were processed

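For each array the authors deposited log2 values of 28941 probe sets, with no detection calls. Base 2 was inferred from the range of 1.48 to 13.27. The submitters' processing notes name MAS5, and background correction, normalization and summarisation are not given in the sources used here. Platform annotation named 23410 probe sets, 21789 with 1 gene and 1621 with several, and symbols were updated by Entrez identifier through RefSeq (GRCm38.p6), which also supplied gene order and promoter sequences. M(CSF2) minus M(CSF1) was fitted over all probe sets in R 4.3.3 by limma 3.58.1, using its linear model with moderated variances and 2-sided tests, with Benjamini-Hochberg adjustment over all probe sets, no covariate and no filter. In gene lists the probe set with the highest mean stood for a gene. The members, lists, promoter motifs and background level were chosen with earlier results of these data known. Besides the members, the rule for named genes took up to 3 called genes in each direction per list, the 3 brightest cell type markers, and the nearest 2 profiles per called member. Not all markers so named are printed. Data were simulated for this comparison on 28941 probe sets with 200 changed. There the fit recovered 48% of changes of 0.5, 88% of 1, 96% of 2 and 100% of 4, with 10 false among 176 calls. The deposited data gave 7139 calls, far more than the changes simulated, so these rates do not carry over to them. The number of arrays limits the precision. Alternatives were other normalizations, filters, variance models and probe set choices, a block for replicate number, and omission of single arrays.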

Additional observations from a re-analysis of the deposited data

How the results depend on the processing

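Plet1, Plaur, Ly6i and both shared Ly6c probe sets kept their direction and their call in every alternative that gave a value for them. Ly6e kept its direction at 0.57 to 0.86 with an array left out, but ended on the other side of the threshold without M(CSF1) replicate 2 (0.63), without M(CSF2) replicate 1 (0.62), without M(CSF2) replicate 2 (0.72) and with ordinary least squares (0.69, adjusted p = 0.0974). The causes were not tested. The largest adjusted p over the alternatives was 0.0411 for the Ly6c probe sets. With an array left out, Plet1 ranged from 7.29 to 7.48, Plaur from 4.50 to 4.73, Ly6i from 3.63 to 3.85 and the Ly6c probe sets from 1.89 to 2.85. Ly6g passed in none of 13 alternatives, and filters on dim probe sets leave it out. Counts over all probe sets ran from 4903 to 7593, against 7139 as reported. Of 544 list counts under the alternatives, 503 stayed within 1.5 times and 41 moved further. Among the lists with counts that moved further, other Ly6/uPAR genes called higher ran from 0 to 2. GPI anchor genes called higher ran from 3 to 8, and interferon-stimulated genes called lower from 4 to 10. The labels do not say whether same-numbered samples are paired. Deviations of same-numbered arrays correlated at -0.01, -0.03 and -0.24 over all probe sets, which cannot settle whether they share a mouse or a culture batch. With the replicate block the Ly6e difference was 0.69 (adjusted p = 0.00538), the count of called member probe sets stayed at 6, and 10 interferon-stimulated genes were called lower, against 6.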

Other observations

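Ly6c was among the most variable transcripts between the M(CSF1) samples. By SD over the 3 M(CSF1) arrays, the shared Ly6c probe sets ranked 9 and 10 of 28941, while in M(CSF2) 20.0% and 21.2% of probe sets had a larger SD. The named probe sets with a larger SD in M(CSF1) were Myo9a (0.91), a shared immunoglobulin kappa set with Igkc (0.83), the desaturase genes Fads2 (0.81) and Scd2 (0.75), and Asb2 (0.74), and 3 more such probe sets have no gene name in the annotation. M(CSF1) replicate 1 was the highest array for Myo9a, Igkc and Asb2, as for Ly6c, and the lowest for Fads2 and Scd2. Myo9a gave 4.08, 3.39 and 2.28 on the 3 M(CSF1) arrays, so its spread lay near and below the olfactory receptor level. Il7r, the interleukin 7 receptor, ranked 12 and gave 6.10 on M(CSF1) replicate 1, against 5.34 and 4.78 on the other M(CSF1) arrays. The mean of 5 B cell markers was 4.50 on M(CSF1) replicate 1, against 4.02 and 4.10 on the other M(CSF1) arrays. Most of this came from Cd79a (3.75, against 2.90 and 2.77) and Ms4a1 (3.86, against 3.02 and 3.12), both under the olfactory receptor level on those other arrays. Cd79b (7.49, against 7.28 and 7.45) and Pax5 (4.23, against 4.15 and 4.21) differed less, and Ebf1 was at background. These genes were picked for their spread, and no test was made.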
